A study of Mus musculus with 4 samples.

Results

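The genes described here encode the molecular chaperones of the heat shock protein (HSP), DNAJ and CCT families, in mouse embryos at E7.75. They were found by symbol, whatever their level: Hspa and Hspb genes, the HSP90 genes, Hspd1, Hspe1 and Hsph1, the Dnaja, Dnajb and Dnajc genes, Cct2 to Cct8 and Tcp1, without pseudogene (-ps) forms. The annotation holds 82 such genes, and 81 of them have an identifier in the count files. Of these, 71 had 10 or more counts in at least 2 embryos and are the members described, among 39179 genes listed. All 71 also passed the filter of the test across all genes. Hspa14 is not analysed here.

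RNA was sequenced from 4 individual chimeric embryos, 2 made with ESCs (embryonic stem cells) carrying FLAG-Lhx1 and 2 with ESCs carrying FLAG-Lhx1-mt, also written FLAG-Lhx1-Δ. LHX1 is a LIM homeodomain transcription factor of the head organizer, and FLAG is a short peptide tag. Both kinds of ESC had been cultured in 2i medium before injection at the 8-cell stage into hosts of an ARC x RLZRFP cross, and the transgene was induced by 24 hours of doxycycline (2 mg/mL, with 5% sucrose, in the mother's water). The labels used here do not say what the Δ form lacks, how many ESC clones were used or what share of host cells each embryo kept. Embryos were collected at E8.5 and were about 1 day delayed, so all 4 are called E7.75 by stage. Values of the 4 embryos are given below with replicate 1 before replicate 2 in each group.

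Chaperones bind unfolded proteins and let them fold. HSP70 proteins cycle between binding and release of a client with ATP, DNAJ proteins (also called HSP40) deliver clients and start that cycle, and HSP110 proteins help to reset it. HSP90 takes partly folded clients such as kinases and steroid receptors from HSP70. CCT is a ring-shaped chaperonin that folds actin and tubulin, and HSP60 with its lid HSP10 is the chaperonin of mitochondria. Part of the family is made in all cells, and part is induced when HSF1 binds heat shock elements in promoters. The genes of the endoplasmic reticulum (ER) are instead induced through ER stress elements. Early embryos are rapidly dividing and are known for high basal levels of several of these genes.

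The promoter sequences of members that hold the letters of these 2 kinds of element are shown first, so that their values can be read beside these letters. RefSeq promoter windows on GRCm38.p6 were at hand for 57 of the 71 members, and the 250 bases before each start were searched on both strands. The strict heat shock element was searched as GAANNTTCNNGAA and was found for Hspd1, Hspe1 (2 overlapping matches each, 1 of them shown) and Dnajb6, which is 5.26% of the 57, against 0.514% of 27025 genes. Hspd1 and Hspe1 hold it in the same stretch of DNA. They are counted as separate genes in this share and in those of the shorter forms below. The ER stress element was searched as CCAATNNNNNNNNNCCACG and was found for Hspa5, Hsp90b1 and Dnajc3, also 5.26% of the 57, against 0.13% of all genes. Matches are written in capitals below, and each line reads 5′ to 3′ on the strand of the gene. A match describes letters, not binding.

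Hspe1, chr1:55088056-55088085, + strand, heat shock element: ccgttctaGAACCTTCCGGAAggccccgcg

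Hspd1, chr1:55088055-55088084, - strand, the same element read from the other gene: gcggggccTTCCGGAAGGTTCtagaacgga

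Dnajb6, chr5:29735844-29735873, + strand, heat shock element: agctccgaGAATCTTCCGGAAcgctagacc

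Hspa5, chr2:34772020-34772049, + strand, ER stress element: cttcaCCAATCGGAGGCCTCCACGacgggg

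Hsp90b1, chr10:86705632-86705661, - strand, first ER stress element: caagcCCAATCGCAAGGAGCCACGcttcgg

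Hsp90b1, chr10:86705527-86705556, - strand, second ER stress element, in reverse: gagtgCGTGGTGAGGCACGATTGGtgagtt

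Dnajc3, chr14:118937682-118937931, + strand, the whole 250 bases, ER stress element: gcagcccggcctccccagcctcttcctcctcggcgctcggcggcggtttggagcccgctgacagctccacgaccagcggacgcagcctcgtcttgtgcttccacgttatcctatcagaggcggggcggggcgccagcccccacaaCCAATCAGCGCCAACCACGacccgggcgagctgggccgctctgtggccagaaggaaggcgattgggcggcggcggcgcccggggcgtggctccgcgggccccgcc

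The strict element contains 2 shorter forms. TTCNNGAA was found for 7 of the 57 members (12.3%, against 8.11% of all genes), among them the heat-inducible Hsph1 and Dnajb4. GAANNTTC, marked below, was found for 10 of the 57 members (17.5%, against 7.73% of all genes). They include the heat-inducible genes Hspa1b, Hspb1 and Dnaja1, of which the first 2 are shown because their levels, given further on, were very low.

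Hspa1b, chr17:34959239-34959488, - strand, the whole 250 bases: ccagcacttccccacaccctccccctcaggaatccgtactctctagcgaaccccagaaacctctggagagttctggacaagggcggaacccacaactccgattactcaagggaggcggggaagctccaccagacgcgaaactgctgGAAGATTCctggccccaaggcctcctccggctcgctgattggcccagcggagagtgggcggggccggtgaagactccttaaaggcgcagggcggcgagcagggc

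Hspb1, chr5:135887791-135887820, + strand, first match: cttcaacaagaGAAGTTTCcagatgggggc

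Hspb1, chr5:135887811-135887840, + strand, second match: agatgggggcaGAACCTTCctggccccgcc

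Chaperone genes were called in a share near that of all genes. Of 71 members, edgeR called 3 at an adjusted p under 0.05 (4.23%, against 6.17% of the 15822 genes tested): Hspb11 rose in FLAG-Lhx1, and Dnajb1 and Dnajc22 fell. That is 1 member called higher (1.41%, against 2.62% of all genes) and 2 called lower (2.82%, against 3.55%), so the shares are near the background. An unadjusted p under 0.05 was found for 13 of the 71, beside 3366 of the 15822 genes tested, so such p-values are common across all genes here. DESeq2 called 6 of the 67 members to which it gave an adjusted p (8.96%, against 9.42% of 12754 genes). With upper-quartile normalization and with offsets for transcript length and GC content, only Hspb11 was called. The median log2 fold of the members (FLAG-Lhx1 over FLAG-Lhx1-mt) was -0.0036, beside 0.0089 for all genes, and 34 folds were positive and 37 negative. In bulk embryos, fewer cells of a type and less RNA per cell cannot be told apart.

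The members' folds were also small in size. The median absolute log2 fold was 0.25, beside 0.31 for all genes, and 57 of 71 lay under 0.5. The median standard error was also smaller, 0.17 beside 0.27, so fold sizes of members and all genes were not measured equally well. For 50 of the 71, the 95% interval of the log2 fold lay wholly between -1 and 1, that is, within a 2-fold change. Absolute log2 folds over 1 were found for 3 members (4.23%, beside 10.2% of all genes): Dnajc22, which was called, and the low genes Hspa12b and Dnajb2, which were not. The embryos of the 2 groups did not overlap in CPM (counts per 1000000 counts) for 37 members (52.1%), and for 52.2% of all genes tested.

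**Figure D1:**
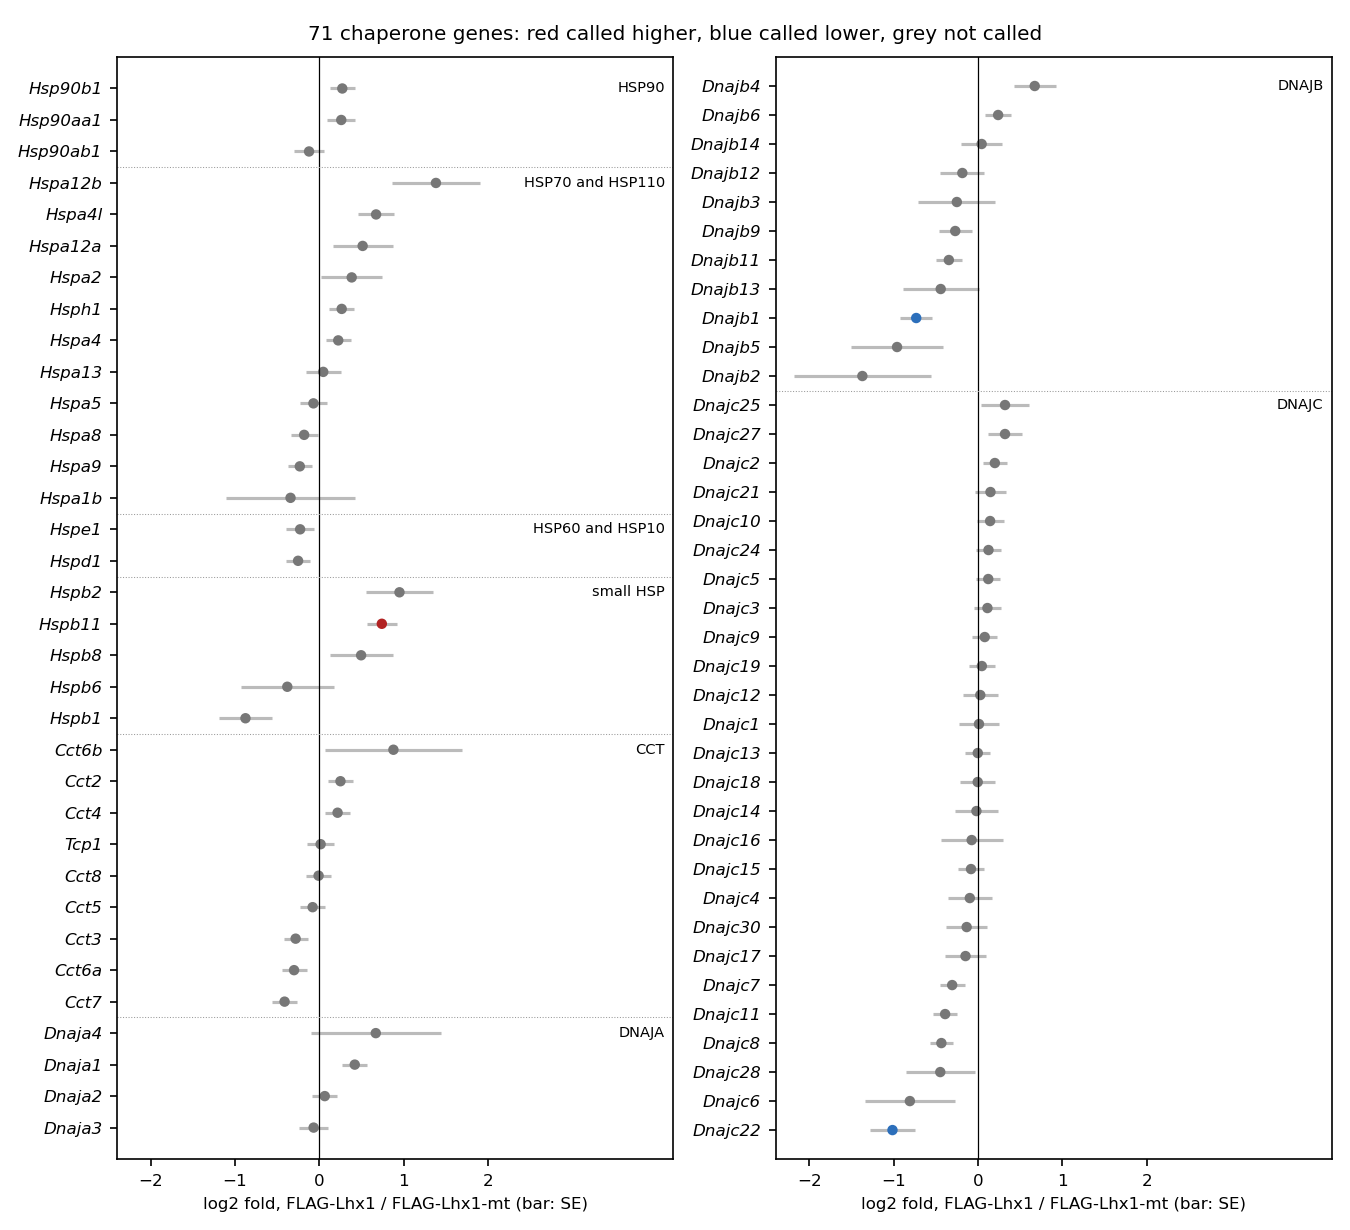
Log2 folds of the 71 chaperone genes (x axis, FLAG-Lhx1 over FLAG-Lhx1-mt, bars are standard errors), grouped by class and sorted within it. Hspb11 in red was called higher and Dnajb1 and Dnajc22 in blue were called lower; the other 68 points, in grey, were not called, and the widest bars belong to genes under 1 CPM.

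The abundance of the family was spread widely. A mean of 1000 CPM or more was found for 7 members: Hsp90ab1, Hsp90aa1, Hspa8, Cct8, Cct5, Hspe1 and Cct4. A further 22 lay from 100 to 1000 CPM, 17 from 10 to 100, 21 from 1 to 10 and 4 under 1 CPM. The members together took 2.89% and 2.47% of all counts in FLAG-Lhx1 replicates 1 and 2 and 2.77% and 2.87% in FLAG-Lhx1-mt replicates 1 and 2, so the groups overlap. The 10 most abundant members held 70.7% to 73.3% of the family's counts in each embryo. The median standard error of the log2 fold was 0.16 at 1000 CPM or more and 0.79 under 1 CPM. Divided by exon length, which allows levels of different genes to be set side by side, the highest were Hsp90ab1 (1347 CPM per kilobase), Hsp90aa1 (991) and Hspe1 (984).

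The HSP90 genes, which encode the chaperone of kinases, receptors and other late folding clients, were not called by edgeR or DESeq2 (an unadjusted p under 0.05 was found for 0 of the 3). Hsp90ab1, the constitutive cytosolic form, had 3985 and 3756 CPM with FLAG-Lhx1 against 3621 and 4796 CPM with FLAG-Lhx1-mt. Its groups overlap, and its log2 fold was -0.12 ± 0.17 (SE, edgeR adjusted p = 0.744). Hsp90aa1, the inducible cytosolic form, had 4625 and 3867 CPM with FLAG-Lhx1 against 3394 and 3691 with FLAG-Lhx1-mt. Both FLAG-Lhx1 embryos were above both others, but the fold missed the threshold (0.26 ± 0.16, SE, edgeR adjusted p = 0.391). Hsp90b1, the ER form also called GRP94, had 834 and 751 CPM against 685 and 627 CPM, again without overlap (0.27 ± 0.15, adjusted p = 0.305). Exons of other genes cover 15.7% of the exon bases of Hsp90b1, and since the strand setting is unknown some of its reads may be theirs.

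Of 11 HSP70 and HSP110 genes edgeR called none, 2 reached an unadjusted p under 0.05, and the count with DESeq2 was 0. Hspa8, which encodes the constitutive HSC70, was the most abundant, with 3026 and 3019 CPM with FLAG-Lhx1 against 3675 and 3169 CPM with FLAG-Lhx1-mt. The groups did not overlap, and the log2 fold was -0.18 ± 0.16 (SE, edgeR adjusted p = 0.57). Hspa4, an HSP110-type exchange factor, had 418 and 366 CPM against 315 and 356 CPM (0.23 ± 0.15, adjusted p = 0.407). Hsph1, which encodes HSP105, had 394 and 341 CPM against 288 and 322 CPM (0.27 ± 0.15, adjusted p = 0.318). These 2 and Hspa4l, a close relative, were higher in each FLAG-Lhx1 embryo than in each FLAG-Lhx1-mt embryo. Hspa4l had 15.04 and 16.13 CPM against 9.41 and 10.1 CPM, with replicates close together, and missed the threshold (0.67 ± 0.22, adjusted p = 0.0823).

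The organelle forms of HSP70 were not called either. Hspa5 encodes BiP, the main HSP70 of the ER and a standard marker of ER stress. It had 776 and 693 CPM with FLAG-Lhx1 against 865 and 676 CPM with FLAG-Lhx1-mt, so that the groups overlap (log2 fold -0.069 ± 0.16, SE, edgeR adjusted p = 0.854; 95% interval -0.41 to 0.27). Hspa9, the mitochondrial form, had 384 and 347 CPM against 446 and 412 CPM, without overlap (-0.23 ± 0.14, adjusted p = 0.383).

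The strictly inducible HSP70 genes were low, Hspa1b under 1 CPM and Hspa1a at or below the floor of 3 counts, in all 4 embryos. Hspa1b had 16 and 4 counts with FLAG-Lhx1 against 8 and 22 counts with FLAG-Lhx1-mt, or 0.204 to 0.703 CPM. Its neighbour Hspa1a had 3, 1, 1 and 3 counts in the same order and stayed under the count minimum. A count of 3 corresponds to 0.0959 to 0.153 CPM here. The 2 genes are near-identical copies, so reads that fit both may have been dropped or split by the counting, and both values are uncertain. Hspa8, by contrast, had 59331 counts or more in each embryo. Hspa2, a form known from the testis, was at 3.51 and 3.56 CPM with FLAG-Lhx1 against 2.19 and 3.20 with FLAG-Lhx1-mt (adjusted p = 0.59). Hspa12b, a distant relative found in endothelium, had the largest fold of the uncalled members (1.45 and 3.05 CPM against 0.945 and 0.767 CPM; 1.38 ± 0.52, SE, edgeR adjusted p = 0.131).

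**Figure D2:**
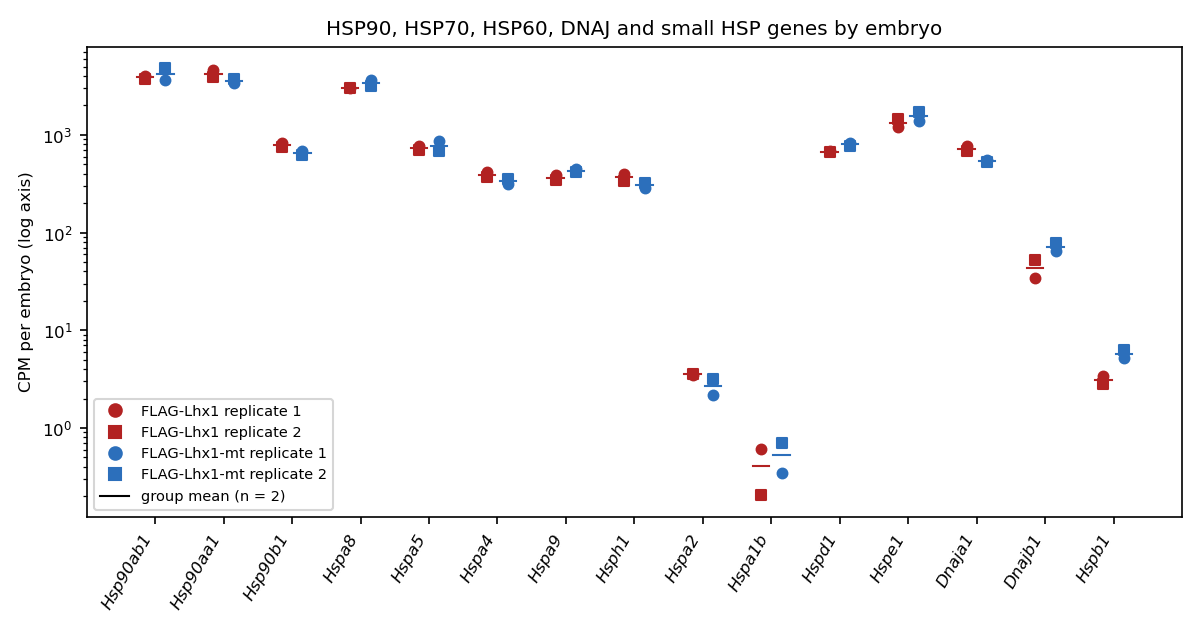
Level of 15 chaperone genes in each embryo (CPM, log axis; red FLAG-Lhx1, blue FLAG-Lhx1-mt, circles replicate 1, squares replicate 2, lines group means). Hsp90ab1, Hsp90aa1 and Hspa8 lie between 3019 and 4796 CPM in all 4 embryos, while Hspa1b lies under 1 CPM in each. Dnajb1 and Hspb1 are lower in both FLAG-Lhx1 embryos.

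Hspd1 and Hspe1, which encode mitochondrial HSP60 and HSP10, are a head-to-head pair on chromosome 1 whose annotated ends overlap by 112 bases, and the shared element shown above lies inside the annotated Hspd1 gene, just before the start of Hspe1. Hspd1 had 686 and 663 CPM with FLAG-Lhx1 against 828 and 778 CPM with FLAG-Lhx1-mt. Its groups did not overlap (log2 fold -0.25 ± 0.14, SE, edgeR adjusted p = 0.341). Hspe1 had 1216 and 1458 CPM against 1401 and 1728 CPM, with overlap (-0.23 ± 0.16, adjusted p = 0.464). The folds of the pair were alike in size and sign, and neither was called. Of the 9 mitochondrial chaperone genes, 8 had a negative fold (median -0.23), as did 7771 of the 15822 genes tested. None of the 9 was called by edgeR or DESeq2, and 1 had an unadjusted p under 0.05. With offsets for transcript length and GC content, the folds of Dnaja3 (-0.067) and Dnajc30 (-0.13) became 0.028 and 0.049. The other negative folds of these genes kept their sign.

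The 8 genes of the CCT ring, in which each subunit occupies its own position, showed no common shift. Their log2 folds ran from -0.41 to 0.25 and edgeR called none (DESeq2 called 1, Cct7, which was also the 1 subunit at an unadjusted p under 0.05). Cct2 had 1102 and 1021 CPM with FLAG-Lhx1 against 814 and 969 CPM with FLAG-Lhx1-mt (0.25 ± 0.15, SE, edgeR adjusted p = 0.37). Cct4 had 1194 and 1056 CPM against 968 and 967 CPM (0.22 ± 0.15, adjusted p = 0.433). Both were higher in each FLAG-Lhx1 embryo, while 3 other subunits were lower in each. Such a lack of overlap was found for 52.2% of all genes tested.

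The subunit with the largest negative fold was Cct7, at 856 and 842 CPM with FLAG-Lhx1 against 1200 and 1059 CPM with FLAG-Lhx1-mt. It missed the threshold (-0.41 ± 0.15, SE, edgeR adjusted p = 0.119) and was called by DESeq2 (adjusted p = 0.0412), with no count filter (0.0221) and without FLAG-Lhx1-mt replicate 2 (-0.51, adjusted p = 0.0433). Cct3 had 734 and 749 CPM against 907 and 893 CPM (-0.28 ± 0.14, adjusted p = 0.278), with replicates nearly equal. Cct6a had 423 and 392 CPM against 545 and 457 CPM (-0.30 ± 0.15, adjusted p = 0.263), and 15.3% of its exon bases lie in exons of other genes.

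The remaining 3 subunit genes overlapped between the groups. Cct5 had 1531 and 1610 CPM with FLAG-Lhx1 against 1712 and 1604 with FLAG-Lhx1-mt (edgeR adjusted p = 0.815). Cct8 had 1608 and 1696 CPM against 1762 and 1559 CPM (adjusted p = 0.986). Tcp1, which encodes the first subunit, had 764 and 802 CPM against 868 and 681 CPM (adjusted p = 0.968). Exons of other genes cover 16.9% of the exon bases of Tcp1. The testis paralog Cct6b was at 0.687 and 0.458 CPM against 0.0859 and 0.511 CPM and rests on 2 to 18 counts per embryo (0.88 ± 0.81, SE, adjusted p = 0.586).

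Although CCT holds its subunits in equal number, their transcript levels per kilobase were unequal, and in a like order in each embryo. Cct5, Cct8, Cct2 and Cct4 took the first 4 ranks, in that order, in all 4 embryos, from a mean of 584 CPM per kilobase for Cct5 to 249 for Cct4. The other 4 lay between 126 for Cct6a and 155 for Tcp1, and their order varied between embryos. The highest subunit was 4.35 to 5.38 times the lowest within an embryo. With the length of the longest transcript in place of all exon bases, the ratio of the means was 4.70 rather than 4.65. The first 4 kept their order, while Tcp1 (228) fell below Cct7 (255) and Cct3 (246). The ranks depend on annotated lengths: Cct7, Cct3 and Tcp1 have 6778, 6370 and 5030 exon bases, and Cct2 and Cct5 have 2557 and 2766. In CPM, without length, Cct7 (842 to 1200) and Cct2 (814 to 1102) lay in a like range.

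**Figure D3:**
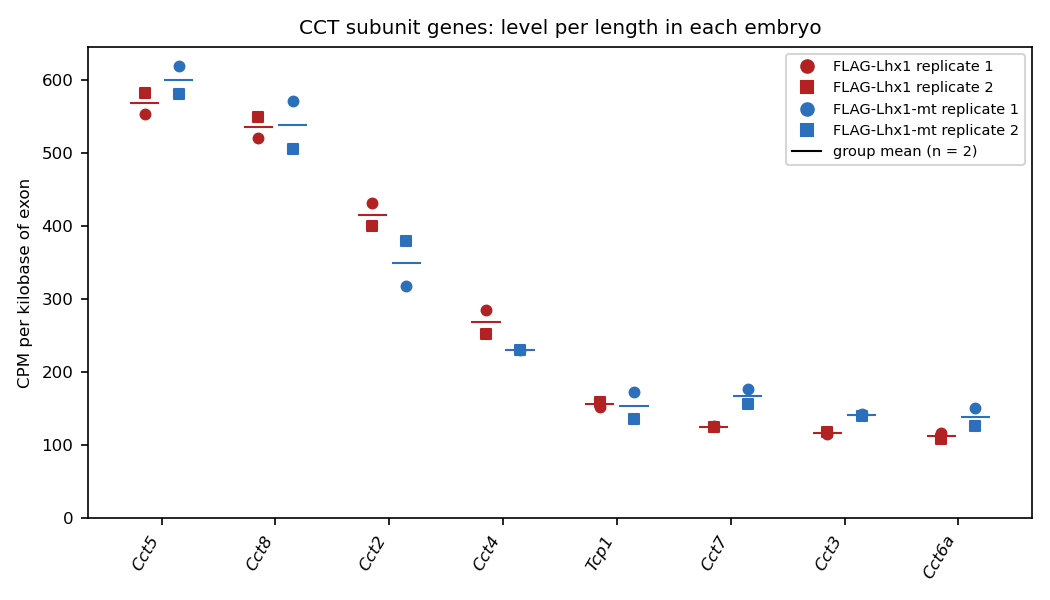
Level per length of the 8 CCT subunit genes (CPM per kilobase of exon; red FLAG-Lhx1, blue FLAG-Lhx1-mt, lines group means). Cct5 and Cct8 lie from 505 to 619 in every embryo, and Tcp1, Cct7, Cct3 and Cct6a from 108 to 177.

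Among the DNAJ genes, edgeR called Dnajb1 and Dnajc22 lower and none of the other 39, while DESeq2 also called Dnaja1 higher and Dnajc8 lower. The edgeR calls are 1 of 11 Dnajb genes (9.09%) and 1 of 26 Dnajc genes (3.85%), against 3.55% of all genes called lower. Dnajb1 (ENSMUSG00000005483, chr8:83608193-83612653 of GRCm38) encodes the main heat-inducible HSP40, which delivers clients to HSP70. It had 34.5 and 52.0 CPM with FLAG-Lhx1 against 64.7 and 78.8 CPM with FLAG-Lhx1-mt. Both FLAG-Lhx1 embryos were below both others, and the log2 fold was -0.73 ± 0.19 (SE, edgeR adjusted p = 0.0336). The call was lost without FLAG-Lhx1 replicate 1 (-0.50, adjusted p = 0.278), with upper-quartile normalization (adjusted p = 0.0608) and with offsets for transcript length and GC content (-0.65, adjusted p = 0.0711).

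Dnajc22 (ENSMUSG00000038009, chr15:99093170-99104737) encodes a membrane-bound DNAJ protein. It had 5.08 and 4.63 CPM with FLAG-Lhx1 against 11.4 and 8.31 CPM with FLAG-Lhx1-mt, without overlap (-1.01 ± 0.27, SE, edgeR adjusted p = 0.0394). The call was lost when replicate 1 (-1.11, adjusted p = 0.0826) or replicate 2 (-0.94, adjusted p = 0.171) of FLAG-Lhx1 was left out. It was also lost when the first FLAG-Lhx1-mt embryo was left out (-0.78, adjusted p = 0.0892), in the limma-voom fit (-0.97, 0.0502), under upper-quartile scaling (-0.96, 0.0528) and with the length and GC offsets (-0.84, 0.0851). Markers of visceral endoderm, the absorptive outer layer, moved the same way: 8 of 18 tested fell (44.4%, against 3.55% of all genes) and none rose. Their summed level was 3064 to 3533 CPM in FLAG-Lhx1 and 5471 to 6576 CPM in FLAG-Lhx1-mt, with none of the 18 at 0. Their part in the fall of Dnajc22 was not tested.

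Of the other DNAJ genes, Dnajc8 and Dnaja1 came nearest to the threshold. Dnaja1, a heat-inducible partner of HSP70, had 772 and 677 CPM with FLAG-Lhx1 against 548 and 534 CPM with FLAG-Lhx1-mt. It missed the threshold (0.42 ± 0.15, SE, edgeR adjusted p = 0.105) and was called by DESeq2 (adjusted p = 0.0453). Dnajc8, a DNAJ protein of the spliceosome, had 161 and 160 CPM against 226 and 208 CPM (-0.43 ± 0.14, adjusted p = 0.0783). It was called by DESeq2, with no count filter and without FLAG-Lhx1-mt replicate 2.

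Of the 26 Dnajc genes tested, 12 had a positive and 14 a negative fold, with a median of -0.0032 and a largest positive fold of 0.32 (Dnajc25). Of the 11 Dnajb genes 3 were positive and 8 negative (median -0.27). The largest uncalled negative folds were those of Dnajb2 (0.343 and 0.102 CPM with FLAG-Lhx1 against 0.816 and 0.415 with FLAG-Lhx1-mt; -1.37 ± 0.81, SE, edgeR adjusted p = 0.357) and Dnajb5 (0.840 and 0.916 CPM against 0.988 and 2.40 CPM; -0.96 ± 0.55, adjusted p = 0.338). Both rest on few reads.

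Of the small HSP genes by name, Hspb11 rose (1 of 5 tested, 20%, against 2.62% of all genes). Hspb11 (ENSMUSG00000063172, chr4:107253593-107279938) is known as IFT25, a subunit of the transport particle of cilia that is needed for hedgehog signalling, rather than as a stress protein. It had 38.9 and 49.6 CPM with FLAG-Lhx1 against 26.7 and 26.1 CPM with FLAG-Lhx1-mt. Both FLAG-Lhx1 embryos were higher, and the log2 fold was 0.74 ± 0.17 (SE, edgeR adjusted p = 0.0205). The call was lost without FLAG-Lhx1 replicate 2 (0.57, adjusted p = 0.25) and made in the 9 other alternative fits.

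Hspb1, which encodes HSP25, the classic heat-inducible small HSP, was low. It had 3.43 and 2.80 CPM with FLAG-Lhx1 against 5.20 and 6.26 CPM with FLAG-Lhx1-mt, without overlap, and missed the threshold (-0.88 ± 0.31, SE, edgeR adjusted p = 0.115). It was called without FLAG-Lhx1-mt replicate 1 (-1.01, adjusted p = 0.0419). Hspb2, a muscle form, had 2.94 and 6.21 CPM against 2.66 and 2.04 CPM (0.95 ± 0.40, adjusted p = 0.176), and exons of the neighbouring Cryab cover 30.2% of its exon bases.

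**Figure D4:**
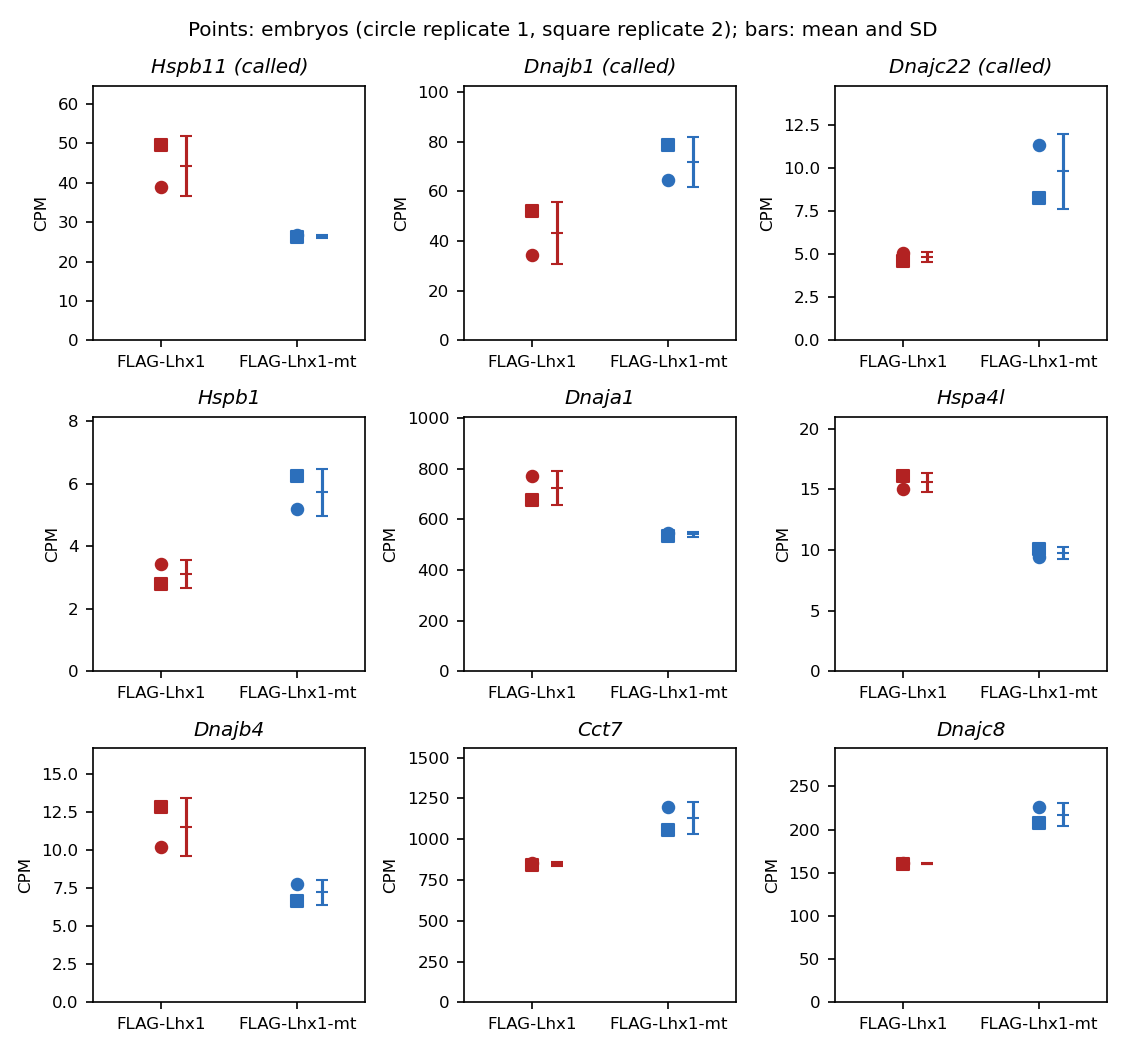
CPM of 9 chaperone genes in each embryo (points), with the mean and SD of each group (bars, n = 2). Hspb11, Dnajb1 and Dnajc22 were called; the other 6 panels show genes whose groups do not overlap and that missed the threshold. Each y axis starts at 0.

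Grouped by compartment and induction, the heat-inducible cytosolic genes had folds in both directions. Of 9 tested, edgeR called Dnajb1 lower (11.1%, against 3.55% of all genes) and none higher, and DESeq2 also called Dnaja1 higher. In the edgeR fit 6 folds were positive and 3 negative (median 0.27). An unadjusted p under 0.05 was found for 5 of the 9, beside 3366 of the 15822 genes tested. The embryos of the 2 groups did not overlap in CPM for 8 of the 9 (88.9%, against 52.2% of all genes tested). Hspa4l, Dnajb4 (10.2 and 12.9 CPM with FLAG-Lhx1 against 7.82 and 6.65 with FLAG-Lhx1-mt), Hspb8 (3.40 and 2.75 CPM against 2.19 and 2.17 CPM) and Dnaja1 had the largest positive folds, and Hspb1, Dnajb1 and Hspa1b had the negative ones. The longest transcripts of the first 4 have 9479, 4913, 1816 and 5622 bases, and those of the last 3 have 930, 2996 and 2803 bases. Across the 71 members, which are not independent replicates, Spearman's rho of the log2 fold was 0.17 with transcript length and -0.30 with GC content, beside 0.25 and -0.16 for all genes. With offsets for length and GC content the folds of Hspa4l, Dnajb4 and Dnaja1 were 0.38, 0.49 and 0.21, and that of Hspb8 was 0.67, up from 0.50. Those of Hspb1, Dnajb1 and Hspa1b were -0.72, -0.65 and -0.22. The part of length and GC content in the directions of these folds was not tested.

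The 12 ER members had a median log2 fold of 0.0040, 6 positive and 6 negative, and none was called by edgeR (1 had an unadjusted p under 0.05, Dnajb11, chosen for mention after its value was seen). Dnajb11, a partner of BiP, had 98.7 and 97.1 CPM with FLAG-Lhx1 against 138 and 111 CPM with FLAG-Lhx1-mt (-0.35 ± 0.15, SE, edgeR adjusted p = 0.195). The 3 genes with an ER stress element in the window, Hspa5, Hsp90b1 and Dnajc3, had folds of -0.069, 0.27 and 0.11. The 3 with the strict heat shock element, Hspd1, Hspe1 and Dnajb6, had -0.25, -0.23 and 0.24. The 7 constitutive cytosolic members had a median of 0.065.

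The other 10 genes named by the rule stayed under the count minimum. The most counts in any embryo were 9 for Hspb7, 8 for Hspb9, 6 for Dnajb7, 5 for Hspa1l and Dnajc5g, 4 for Hspb3 and Dnajc5b, 3 for Hspa1a and Dnajb8 and 2 for Cct8l1. Several of these are known from testis or muscle.

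Genes that regulate, assist or depend on the chaperones are given next. Of 27 co-chaperones of HSP70 and HSP90, 7 fell (25.9%, against 3.55% of all genes) and 1 rose (3.70%, against 2.62%), with a median log2 fold of -0.31. The visceral endoderm markers given with Dnajc22 had a median of -0.60, and their part in these falls was not tested. Cdc37, which brings kinases to HSP90, had 73.6 and 54.2 CPM with FLAG-Lhx1 against 112 and 110 CPM with FLAG-Lhx1-mt (-0.80 ± 0.16, SE, edgeR adjusted p = 0.0100). Ahsa1, an activator of the HSP90 ATPase, had 137 and 136 CPM against 206 and 217 CPM (-0.63 ± 0.14, adjusted p = 0.0142). Stub1, the ubiquitin ligase CHIP that marks clients for destruction, had 25.5 and 21.1 CPM against 52.2 and 35.1 CPM (-0.90 ± 0.20, adjusted p = 0.0159). The gene that rose was St13, the HSP70-interacting protein HIP. Without FLAG-Lhx1 replicate 2 none of the 7 falls was called (0 to 8 with 1 embryo left out), 4 fell under upper-quartile normalization, and with the length and GC offsets 3 fell and none rose.

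Of 16 tested heat shock regulators and related stress genes, Hsf2 rose and 3 fell (median -0.072), that is 6.25% and 18.8%, against 2.62% and 3.55% of all genes. Hsf2, a heat shock factor active in embryos, had 225 and 236 CPM with FLAG-Lhx1 against 127 and 152 CPM with FLAG-Lhx1-mt (0.73 ± 0.15, SE, edgeR adjusted p = 0.0092). Hspbp1, which encodes an HSP70 exchange factor, fell (26.9 and 22.8 CPM against 55.2 and 46.3 CPM; -1.03 ± 0.17, adjusted p = 0.00289), as did the metallothionein Mt1 (-0.75 ± 0.14, adjusted p = 0.00613) and Hspbap1. The falls numbered 5 when replicate 1 of FLAG-Lhx1-mt was left out, the rises 2 when its replicate 2 was, and with the length and GC offsets there was no rise. Immediate early genes, which respond to handling as well as to signals, are given beside these. Of 14 tested, 2 rose (14.3%, against 2.62% of all genes) and none fell. Fos had 22.1 and 23.0 CPM with FLAG-Lhx1 against 2.02 and 1.15 with FLAG-Lhx1-mt (3.85 ± 0.29, SE, edgeR adjusted p = 2.78e-06), and Egr1 had 3.43 and 4.68 CPM against 1.46 and 0.895 CPM (1.79 ± 0.42, adjusted p = 0.0196). Absolute log2 folds over 1 were found for 6 of the 14 (42.9%, beside 10.2% of all genes), all positive. They are these 2 and the uncalled Fosb (2.47), Jun (1.82), Egr2 (1.36) and Ier3 (1.34). The 16 listed genes summed to 102 and 104 CPM with FLAG-Lhx1 against 96.6 and 76.6 with FLAG-Lhx1-mt. The largest part of each sum was Klf6, at 32.2 and 34.1 CPM against 47.7 and 36.1 CPM. The part of the immediate early genes in the stress genes' values was not tested.

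Of 12 tested prefoldin genes and CCT helpers, which hand actin and tubulin to the ring, edgeR and DESeq2 called none, 4 had an unadjusted p under 0.05, and the median was 0.034. Of 13 actin and tubulin genes, the clients of CCT, Tubb3 rose (7.69%, against 2.62% of all genes) and Tuba4a and Tubg1 fell (15.4%, against 3.55%). Tubb3, a neuronal tubulin, had 15.34 and 15.01 CPM with FLAG-Lhx1 against 6.14 and 9.33 with FLAG-Lhx1-mt (0.97 ± 0.25, SE, edgeR adjusted p = 0.0328). Tuba4a had 9.31 and 7.63 CPM against 20.9 and 24.0 CPM (-1.40 ± 0.22, adjusted p = 0.00177). The list had no rise when any embryo but FLAG-Lhx1-mt replicate 2 was left out, and 1 fall when either FLAG-Lhx1 embryo was.

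Of 32 other ER folding and unfolded protein response genes, Xbp1 and Herpud1 fell (6.25%, against 3.55% of all genes) and none rose (against 2.62%). Of the 32 folds 27 were negative (median -0.32), beside 7771 negative folds among the 15822 genes tested. Herpud1, which acts in the disposal of ER proteins, had 17.5 and 15.4 CPM with FLAG-Lhx1 against 33.1 and 33.5 with FLAG-Lhx1-mt (-1.02 ± 0.18, SE, edgeR adjusted p = 0.00457). Xbp1, a transcription factor of the response and of secretory cells, had 50.8 and 41.9 CPM against 90.1 and 60.7 CPM (-0.70 ± 0.19, adjusted p = 0.0387). The list had 1 fall when replicate 2 of FLAG-Lhx1 or replicate 1 of FLAG-Lhx1-mt was left out, 6 when replicate 2 of FLAG-Lhx1-mt was, and 6 with DESeq2. The visceral endoderm markers given with Dnajc22 moved in the same direction, and their part in this was not tested. Of 16 other mitochondrial folding and protease genes, Yme1l1 rose and Clpp, Grpel2 and Trap1 fell (median -0.36), that is 6.25% and 18.8%, against 2.62% and 3.55% of all genes. Clpp, a matrix protease, had 117 and 119 CPM against 181 and 196 CPM (-0.68 ± 0.14, adjusted p = 0.0106), Grpel2 serves mitochondrial HSP70 (adjusted p = 0.0436), and Trap1 is the mitochondrial HSP90 (adjusted p = 0.0471). Falls in this list numbered 1 (and no rise) when replicate 1 of FLAG-Lhx1 was left out, 0 when its replicate 2 was, 5 when replicate 2 of FLAG-Lhx1-mt was, 5 with DESeq2 and 1, with no rise, under the length and GC offsets.

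**Figure D5:**
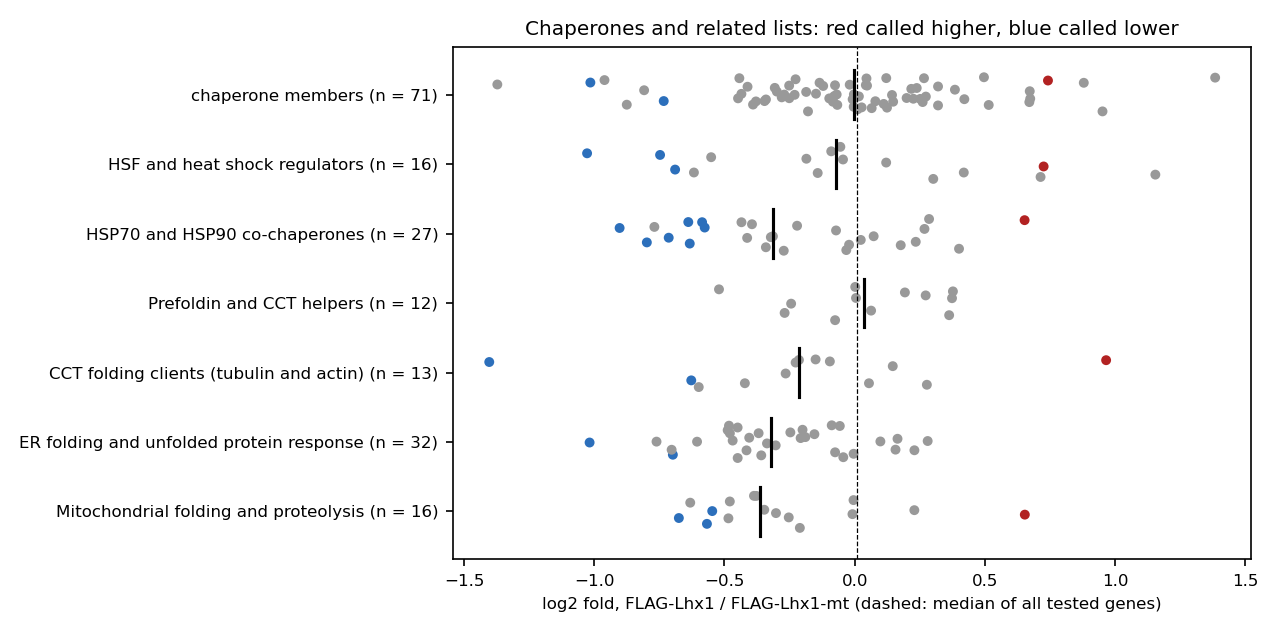
Log2 folds (x axis, FLAG-Lhx1 over FLAG-Lhx1-mt) of the 71 chaperone genes and 6 related lists; points are genes, black bars list medians, the dashed line the median of all genes. Chaperones centre on the dashed line with 3 called, while co-chaperones (median -0.31), ER genes (-0.32) and mitochondrial genes (-0.36) lie mostly to its left.

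The libraries held 21267116 to 30434442 counts, with 2.80% to 3.06% from mitochondrially encoded genes and no separation of the groups. All 9 markers of the gastrula epiblast and germ layers, the labelled tissue, were detected. Of these Hesx1 (2.80) and Sox2 (1.05) rose, and Pou5f1 (-1.76), Mesp1 (-1.47), T (-0.70) and Epcam (-0.67) fell (log2 folds, edgeR). The shares are 22.2% higher and 44.4% lower, against 2.62% and 3.55% of all genes. Of 10 tested markers of extraembryonic ectoderm and trophoblast, Eomes (-3.12) and Rhox5 (-0.76) fell (20%, against 3.55% of all genes) and none rose. Of the 10 folds, however, 6 were positive and 4 negative (median 0.28). The list summed to 116 and 139 CPM with FLAG-Lhx1 against 228 and 330 with FLAG-Lhx1-mt, mostly from Rhox5 and Eomes. The groups therefore differ in cell type markers, whose part in the members' values was not tested. Haemoglobin genes had 0 to 4 counts each, blood markers summed to 3.44 to 8.12 CPM and maternal decidua markers to 5.09 to 6.77 CPM, with overlap between the groups.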

How the data were processed

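RNA was sequenced from 4 single embryos (2 FLAG-Lhx1, 2 FLAG-Lhx1-mt) after Geo-seq pre-amplification without molecular identifiers, so floors cover counting error only. The deposited values are whole-number read counts per Ensembl gene; per the submitters' processing notes the authors used STAR and featureCounts (Subread) with GRCm38 and mm10. The sources used here give no versions, annotation release or strand setting.

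Symbols, positions, exon and transcript lengths were taken from GENCODE vM21, which matched 37693 of 39179 IDs; 27 of the 71 members share exon bases with another gene, and over 20% in 3 (Dnaja4, Dnajc30 and Hspb2), whose values are uncertain. Genes were filtered by filterByExpr (minimum count 10, total 15), scaled by TMM and compared by group alone with the quasi-likelihood F test of edgeR 4.0.16 under R 4.3.3, and Benjamini-Hochberg adjustment over 15822 genes. DESeq2 1.42.0 and limma-voom (limma 3.58.1) were alternatives. CPM use TMM scaling, standard errors are the absolute log2 fold over the square root of F, and the test was checked on simulated data. The spread is that between 2 embryos per group.

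The members and lists were chosen with earlier results of these data known. Given with full values are called members, the main HSP and CCT genes fixed by name, the 3 highest per length, the 3 uncalled with the largest fold and up to 3 called genes per related list; Hspa4l, Dnajb4, Dnajb11, Dnajc8, Hspb8 and Hspb2 were added after their values were seen.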

Additional observations from a re-analysis of the deposited data

How the results depend on the processing

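The number of genes called between the groups was 976 and ran from 521 (without FLAG-Lhx1 replicate 2) to 1648 (without FLAG-Lhx1-mt replicate 1) with 1 embryo left out. Of the calls 42.5% were higher, and 54.4% under upper-quartile normalization. The 1 member called higher became 2 with DESeq2 and 0 to 1 with 1 embryo left out. The 2 members called lower became 4 in the DESeq2 fit and when low genes were kept (no count filter), 1 with limma-voom, 0 with upper-quartile normalization, 0 with the length and GC offsets, and 0 to 5 with 1 embryo left out (the fit without FLAG-Lhx1 replicate 1 called 0, that lacking FLAG-Lhx1-mt replicate 2 called 5). The members' median log2 fold was -0.067 with no count filter. It was 0.049 under upper-quartile normalization and -0.032 to 0.057 with 1 embryo left out. The causes were not tested.

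Some uncalled folds reversed in sign. With 1 embryo left out, that of Hspa1b ran from -1.39 to 0.26, Hspa5 from -0.25 to 0.11, Hsp90ab1 from -0.32 to 0.083, Tcp1 from -0.16 to 0.20 and Cct8 from -0.11 to 0.077. Tcp1 was at -0.043 with no count filter and -0.077 with the length and GC offsets, Cct5 at 0.062 with the offsets, and Cct8 at 0.047 with upper-quartile normalization and 0.041 with the offsets.

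Replicate numbers did not mark pairs (correlation of same-numbered embryos' deviations 0.016); a fit with the replicate number as a block called 1138 genes and the same 1 member higher and 2 lower, and it moved the falls among the mitochondrial folding genes from 3 to 5. Under 10 CPM the standard errors (median 0.36 from 1 to 10 CPM) limit what 2 embryos per group can show.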
